A study of Ovis aries with 9 samples.

Results

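Transcript levels of the genes that write, erase and read DNA methylation were compared in whole ovaries of 9 ewes sequenced by RNA-Seq. The genes were listed by name for their known roles, with earlier results of these data known, and no measured value entered the rule. They were DNMT1, DNMT3A, DNMT3B, TET1, TET2, TET3, UHRF1, TDG, MBD2 and MBD4. Of these 10 genes, 9 had a row under their symbol among the 27174 rows of the count table, and MBD2, a methyl-CpG binding protein, was not analysed here. All 9 had enough reads to be tested, beside 16871 tested rows in all.

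The ewes formed 3 groups of 3 animals. The Dorset group (ewes D4, D5 and D6) came from a breed of low fecundity and served as the control, with the genotype given as wild type. The Han BB group (W1, W2 and W4) held Small Tail Han ewes homozygous for the B allele of FecB, a mutation in the BMP receptor gene BMPR1B that is known for raising ovulation rate. The Han ++ group (W6, W7 and W8) held Small Tail Han ewes homozygous for the wild-type allele. All were adults synchronized with a progestagen sponge and pregnant mare serum gonadotropin, and whole ovaries bearing ovulation points were taken after a later spontaneous estrus. The comparison of Han BB with Han ++ is within a breed. In Han BB against Dorset the breed and the FecB genotype differ together and cannot be told apart.

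DNA methylation in mammals is placed mostly on cytosines that precede a guanine. DNMT3A and DNMT3B set new marks, while UHRF1 finds hemimethylated sites behind the replication fork and brings in DNMT1, which copies the mark to the new strand. The TET enzymes oxidize methylcytosine, and the glycosylase TDG cuts out the oxidized bases, after which base excision repair restores an unmarked cytosine. In the ovary, new marks are laid down in the growing oocyte, where DNMT3A with its cofactor DNMT3L also sets the maternal imprints, while the somatic cells around it divide and need maintenance methylation.

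The libraries held between 10803913 (W8) and 20992535 (W7) counts. W4 and D6 stood apart from their groups on the axis that carried 41.3% of the variance between libraries. They lay at -107 and -103, against 118 for D4 at the other end. Their rank correlation with each other over tested genes (0.978) was above that with any ewe of their own group. Within their groups it was at most 0.931 for W4 and 0.949 for D6. That was not particular to them, since W1, D4 and D5 also matched a ewe of another group best. Their values were 0.978 with W6, 0.956 with W2 and 0.962 with W7, against at most 0.971, 0.933 and 0.949 within their own groups. In D4 a single row, LOC101101865, took 14.9% of all counts. Results are therefore also given without W4 and D6 for several genes, and without D4 for DNMT1, TET1 and TET2.1. Fold changes that turned when any 1 ewe was left out are given as ranges further below. The labels name no batch of extraction or sequencing.

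Markers of ovarian cells were detected in all libraries. The granulosa cell markers FSHR and INHA had 81 to 302 and 203 to 1526 reads, the steroidogenic genes STAR and CYP11A1 438 to 4463 and 1100 to 6242 reads, and the smooth muscle actin ACTA2 18628 to 51985 reads. Of 12 listed oocyte genes 11 had a row and 7 could be tested. Among the tested ones GDF9, an oocyte growth factor, had 12 to 98 reads and ZP3, of the egg coat, 14 to 205, whereas BMP15, DAZL, OOEP and ZAR1 had too few reads to test. In bulk tissue fewer cells of a type and less RNA per cell cannot be told apart.

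Levels are given as CPM, that is, read counts per 1000000 reads of tested genes in the library, after scaling by the trimmed mean of M-values (TMM). The table holds no transcript lengths, so levels were compared between ewes and never between genes. Tests were edgeR's quasi-likelihood F-test over all 9 libraries, with p-values adjusted by Benjamini and Hochberg over all 16871 tested rows. Genes were called where the adjusted p stayed under 0.05 and the level changed by more than 1.5 times in either direction.

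None of the 9 tested genes was called in any of the 3 comparisons by edgeR, DESeq2 or limma voom, and the same held for the joint test of any difference among the 3 groups. Over all tested rows edgeR called 0% in Han BB against Dorset, 0.00593% in Han ++ against Dorset and 0% in Han BB against Han ++. DESeq2 called 0.225%, 0.385% and 0.0119% of these rows in that order and limma voom 0%, 0% and 0.0119%. At an unadjusted p under 0.05 edgeR found 1 of the 9 genes in Han BB against Dorset, where 4.99% of all tested rows passed, and none in the other comparisons, where 5.27% and 1.97% of rows passed. DESeq2 found 1, 0 and 0 genes at that level, where 6.25%, 6.19% and 2.5% of all tested rows passed. limma voom found 2, 1 and 1 genes, where 11.5%, 9.78% and 7.26% of rows passed. In the joint test edgeR found none of the 9 genes and 3.94% of rows, with a smallest edgeR p among the 9 of 0.0853, for UHRF1. In that test DESeq2 found 0 genes and 5.15% of rows, and limma voom 2 genes and 8.96% of rows.

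**Figure D1:**
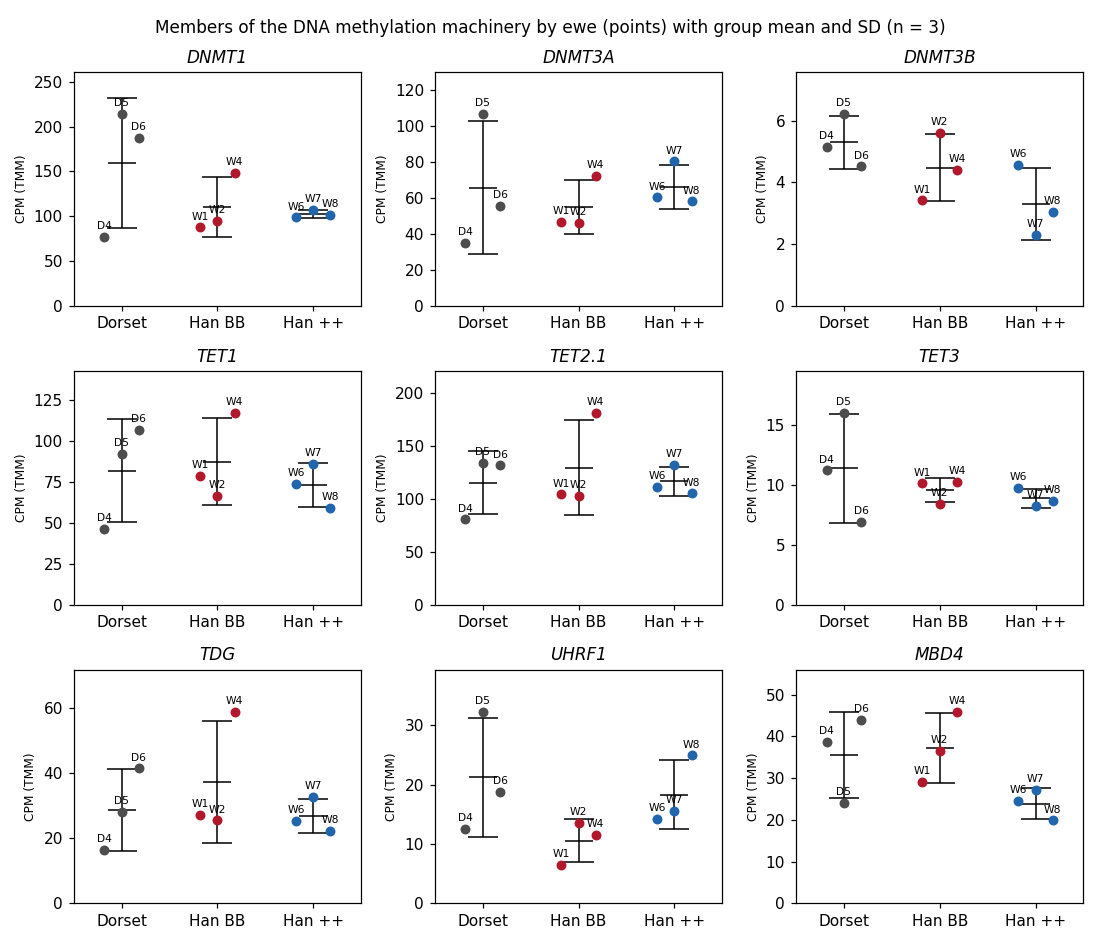
TMM-scaled CPM (vertical axes, each from 0) of the 9 tested genes in each ewe, with horizontal lines at the group mean and bars of 1 SD (n = 3 ewes per group; Dorset grey, Han BB red, Han ++ blue). UHRF1 was lower in the 3 Han BB ewes than in the 3 Han ++ ewes, MBD4 was higher in them, and in all other panels of Han BB and Han ++ the points overlapped.

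UHRF1, the reader that guides DNMT1 to newly copied DNA, had the largest difference among the 9 genes. Its level was 6.55 CPM in W1, 13.6 in W2 and 11.6 in W4 of Han BB. In Dorset it was 12.6 CPM in D4, 32.3 in D5 and 18.8 in D6, and in Han ++ it was 14.3 in W6, 15.7 in W7 and 25.0 in W8. The Han BB values lay below all 3 of Han ++, and only W2 exceeded the lowest Dorset ewe.

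The log2 fold change of UHRF1 in Han BB against Dorset was -1.01 (SE 0.42, 95% interval -1.93 to -0.09), with an edgeR p of 0.0336 and an adjusted p of 0.975. Against Han ++ it was -0.79 (SE 0.42, 95% interval -1.71 to 0.12), with an edgeR p of 0.0833 and an adjusted p of 0.999. The difference from Han ++ was -0.52 without W8, the highest Han ++ ewe (edgeR p 0.292), and -0.53 without W1 (edgeR p 0.270). In Han ++ against Dorset it was -0.22 (SE 0.41). The difference between Han BB and Dorset depended on D5, the ewe with the highest level: without it the log2 fold change was -0.57 with an edgeR p of 0.195. Without W1, the lowest ewe, that value was -0.78 with an edgeR p of 0.122, and without W4 and D6 it was -1.19 with an edgeR p of 0.0384.

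UHRF1 is itself a gene of dividing cells, so a fixed list of 20 proliferation genes is given beside it, of which 19 had a row. Their summed level ran from 525 to 707 CPM among the Han BB ewes, from 596 to 944 CPM among the Dorset ewes and from 632 to 812 CPM among the Han ++ ewes. W1, the ewe with the least UHRF1, had the lowest sum and D5, with the most, the highest. Of the 19 genes, 17 were lower in Han BB than in Dorset on average, as were 50.6% of all tested rows. The median log2 fold change of the 19 was -0.36, against -0.01 over all tested rows. None of the 19 reached an unadjusted p of 0.05 by edgeR or DESeq2, where 4.99% and 6.25% of all tested rows did. By limma voom 4 did, where 11.5% of all tested rows did. Against Han ++, 15 of the 19 were lower in Han BB (median -0.33, against 0.04 over all tested rows, of which 46.6% were lower). There too none reached that p by edgeR or DESeq2, where 1.97% and 2.5% of all tested rows did. By limma voom 5 did, where 7.26% of all tested rows did. Granulosa cell markers followed a like order, with a sum of 78.7 CPM in W1, the lowest of the 9 ewes, and 286 CPM in D5, the highest. All 6 granulosa markers with a row were lower in Han BB than in Dorset, with sums of 78.7 to 161 CPM against 139 to 286 CPM. Their sums were 116 to 276 CPM in Han ++, and all 6 were also lower in Han BB than in Han ++ (median log2 fold change -0.79). The part of these cells in the UHRF1 values was not tested.

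DNMT1, the maintenance methyltransferase, had 77.0 CPM in D4, 214 in D5 and 187 in D6 of the Dorset group. It had 87.7 CPM in W1, 94.98 in W2 and 148 in W4 of Han BB, and 98.8 in W6, 107 in W7 and 102 in W8 of Han ++. The Han ++ ewes were close together (103 ± 4.16 CPM, SD, n = 3), the Dorset ewes were spread widely (160 ± 72.7 CPM, SD, n = 3), and D4 was the lowest of all 9.

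The log2 fold change of DNMT1 was -0.53 in Han BB against Dorset (SE 0.38, 95% interval -1.36 to 0.30, edgeR p 0.185) and -0.64 in Han ++ against Dorset (SE 0.38, 95% interval -1.47 to 0.19, edgeR p 0.118). Between the Han genotypes it was 0.11 (SE 0.38), and this turned to -0.17 without W4 and D6. Both Dorset differences depended on which Dorset ewe was left out. Without D4, the lowest, they were -0.87 and -0.98, with edgeR p-values of 0.0146 and 0.0076 and adjusted p-values of 0.623 and 0.448. Without D5, the highest, they were -0.26 and -0.38, with edgeR p-values of 0.551 and 0.384. D4 also differed from the other Dorset ewes in its marker sums, with 1836 CPM of luteal markers against 351 in D5 and 553 in D6, and 6357 CPM of smooth muscle markers against 12445 and 12263, and the part of this in the DNMT1 values was not tested.

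DNMT3A, a de novo methyltransferase, showed the same spread in Dorset, with 35.0 CPM in D4, 107 in D5 and 55.6 in D6. It stood at 46.7 CPM in W1, 46.1 in W2 and 72.3 in W4 of Han BB and at 60.3 in W6, 80.4 in W7 and 58.1 in W8 of Han ++. The lowest and the highest of the 9 ewes were both Dorset, so the groups overlapped in every comparison. Its log2 fold changes were -0.26 in Han BB against Dorset (SE 0.39, 95% interval -1.12 to 0.60), 0.01 in Han ++ against Dorset (SE 0.39, 95% interval -0.85 to 0.87) and -0.27 in Han BB against Han ++ (SE 0.39, 95% interval -1.13 to 0.59). The last of these was -0.52 without W4 and -0.087 without W7.

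DNMT3B, its paralog, was counted at few reads, from 33 in W8 to 138 in D5. Its level was 5.16 CPM in D4, 6.22 in D5 and 4.52 in D6, then 3.42 in W1, 5.604 in W2 and 4.41 in W4, and 4.58 in W6, 2.31 in W7 and 3.04 in W8. The Han ++ mean was the lowest (3.31 ± 1.16 CPM, SD, n = 3) against 5.30 ± 0.86 in Dorset and 4.48 ± 1.09 in Han BB, but W6 lay above D6. The log2 fold change in Han ++ against Dorset was -0.68 (SE 0.40, 95% interval -1.56 to 0.21, edgeR p 0.12), and reached from -1.01 without W6 to -0.48 without W7. DNMT3L, the catalytically inactive partner that aids DNMT3A in oocytes, had 0 to 15 reads and could not be tested.

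**Figure D2:**
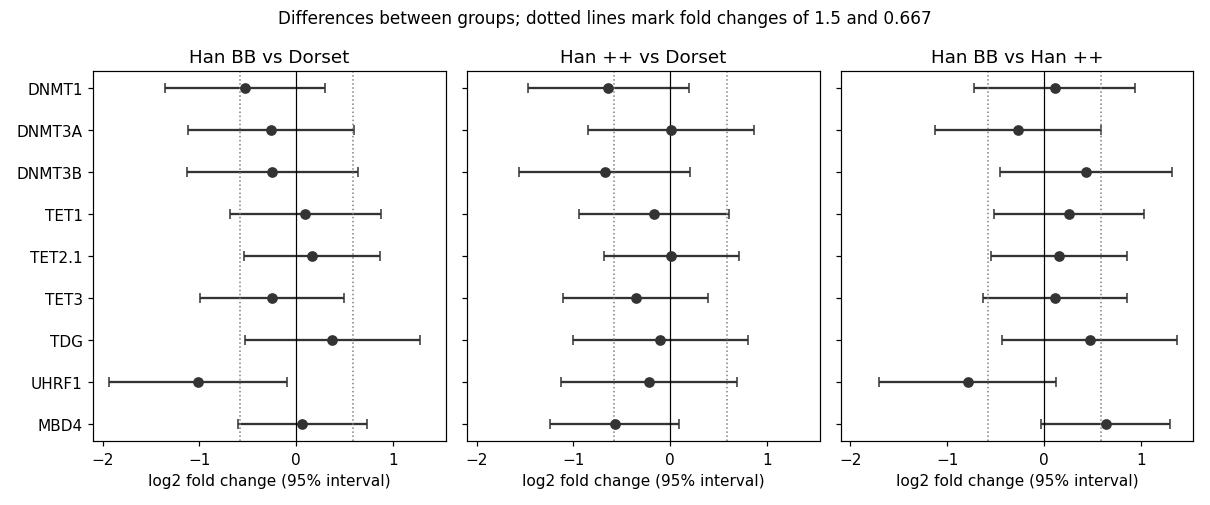
Log2 fold change of each tested gene (horizontal axis) with its 95% interval from edgeR, in Han BB against Dorset, Han ++ against Dorset and Han BB against Han ++. Dotted lines mark a change of 1.5 times in either direction. The interval of UHRF1 in Han BB against Dorset (-1.93 to -0.09) is the single one that leaves out 0.

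Of the erasers, TET1 had 46.3 CPM in D4, 92.5 in D5 and 107 in D6, 78.6 in W1, 66.4 in W2 and 117 in W4, and 73.9 in W6, 86.2 in W7 and 59.0 in W8. The highest ewes were W4 and D6 and the lowest was D4. The log2 fold changes were 0.09 in Han BB against Dorset (SE 0.35, 95% interval -0.68 to 0.87), -0.17 in Han ++ against Dorset (SE 0.35) and 0.26 in Han BB against Han ++ (SE 0.35). The last 2 became 0.06 and -0.02 without W4 and D6. Without D4 the values against Dorset were -0.19 in Han BB and -0.45 in Han ++.

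TET2 stood in 2 rows. The row TET2 held 0 to 7 reads, and the row TET2.1, which carried the same symbol with a suffix, held 828 to 2975, so TET2.1 was taken for the gene. How reads were shared between such rows is not given in the sources used here. TET2.1 had 80.6 CPM in D4, 134 in D5 and 132 in D6, 104 in W1, 103 in W2 and 181 in W4, and 112 in W6, 132 in W7 and 105 in W8. As with TET1, W4 was the highest ewe and D4 the lowest. Its log2 fold changes lay between 0.01 and 0.16 in the 3 comparisons, with SEs of 0.32. Without D4 the value in Han ++ against Dorset was -0.20.

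TET3, the TET enzyme known for its abundance in oocytes, had 94 to 355 reads in these whole ovaries. Its level was 11.2 CPM in D4, 16.0 in D5 and 6.93 in D6, 10.1 in W1, 8.41 in W2 and 10.2 in W4, and 9.73 in W6, 8.23 in W7 and 8.66 in W8. Both extremes were Dorset ewes, and D6, which was the Dorset ewe with the most TET1, had the least TET3. The log2 fold changes were -0.25 in Han BB against Dorset (SE 0.34), -0.36 in Han ++ against Dorset (SE 0.34) and 0.11 in Han BB against Han ++ (SE 0.34). Without D5 the values against Dorset were 0.10 and -0.020, and without W4 and D6 they were -0.57 and -0.62.

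TDG, which removes the oxidized products of the TET enzymes, had 16.5 CPM in D4, 28.1 in D5 and 41.5 in D6, 27.2 in W1, 25.5 in W2 and 58.9 in W4, and 25.3 in W6, 32.7 in W7 and 22.4 in W8. W4 and D6 were again highest and D4 lowest. The log2 fold change was 0.47 in Han BB against Han ++ (SE 0.41, 95% interval -0.43 to 1.38, edgeR p 0.274) and rested on W4, since it was -0.03 without W4 and D6.

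MBD4, a glycosylase that binds methylated CpG and removes the thymine left by deamination, gave the other separation between the Han genotypes. Its level was 29.1 CPM in W1, 36.5 in W2 and 45.9 in W4 of Han BB, all above the 24.5 in W6, 27.2 in W7 and 19.9 in W8 of Han ++. In Dorset it was 38.7 CPM in D4, 24.1 in D5 and 44.0 in D6, which spanned both Han groups. The log2 fold change in Han BB against Han ++ was 0.64 (SE 0.30, 95% interval -0.03 to 1.30), with an edgeR p of 0.0596 and an adjusted p of 0.999. Over all alternatives without a ewe or pair of ewes it stayed positive, at 0.44 without W4 and D6 with an edgeR p of 0.141. In Han ++ against Dorset it was -0.57 (SE 0.30, edgeR p 0.0851).

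UHRF1 and MBD4 were thus the 2 of 9 genes whose Han BB and Han ++ values did not overlap. Over all tested rows 9.38% did not overlap in that comparison. None of the 9 separated in Han BB against Dorset, where 8.79% of rows did, or in Han ++ against Dorset, where 11.1% did. The median log2 fold change of the 9 genes was -0.25 in Han BB against Dorset, -0.22 in Han ++ against Dorset and 0.15 in Han BB against Han ++, beside -0.01, -0.06 and 0.04 over all tested rows. The first 2 of these medians share the Dorset ewes.

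**Figure D3:**
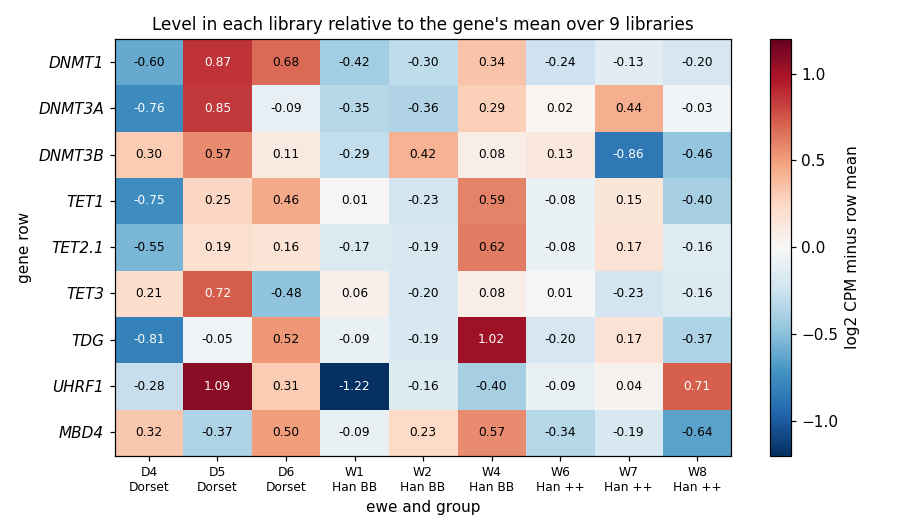
Log2 CPM of each tested gene in each ewe minus the mean of that gene over the 9 ewes (colour and printed number; red above, blue below the mean). D4 is blue for 6 of 9 genes, W4 is red for 8, and D5 and D6 are each red for 7, while no value of W6 lies farther from 0 than -0.34.

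The highest level of every gene came from D5 or W4. Within Dorset, D4 had the lowest level of all 9 ewes for 5 of the 9 genes (DNMT1, DNMT3A, TET1, TET2.1 and TDG), and D5 had the highest for 5 (DNMT1, DNMT3A, DNMT3B, TET3 and UHRF1). Within Han BB, W4 had the highest level of the other 4 (TET1, TET2.1, TDG and MBD4). Averaged over the 9 genes, the log2 level relative to the mean of all ewes was -0.32 in D4, 0.46 in D5 and 0.24 in D6, -0.28 in W1, -0.11 in W2 and 0.35 in W4, and between -0.19 and -0.05 in the Han ++ ewes.

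Which genes varied together was examined by Pearson and Spearman correlation of log2 CPM over the 9 ewes, for all 36 pairs, with two-sided exact permutation tests adjusted over the 36. TET1 and TDG had r = 0.938 and rho = 0.967, TET2.1 and TDG r = 0.939 and rho = 0.800, and TET1 and TET2.1 r = 0.927 and rho = 0.867. The exact permutation p-values of r were 0.000193, 0.000474 and 0.000529, each 0.00635 after adjustment, and no other pair reached an adjusted p of 0.05 by Pearson. Those of rho were 0.00595, 0.0886 and 0.0406 after adjustment over the 36 (exact permutation tests). By Spearman 4 pairs passed, of which 2 joined a writer to TET2.1. They were DNMT3A with TET2.1 (rho = 0.900, adjusted exact permutation p 0.0365) and DNMT1 with TET2.1 (rho = 0.883, adjusted exact permutation p 0.0369).

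Of the 3 pairs that passed by Pearson, TET2.1 with TDG fell most in r when ewes at the ends of the range were left out. Without W4 and D6, TET1 kept r = 0.938 with TDG and 0.925 with TET2.1, with adjusted exact permutation p-values of 0.0238 and 0.0339, and TET2.1 with TDG had r = 0.899 and 0.0629. Each pair was also taken without the 2 ewes farthest from the median level of its first-named gene (here TET1, TET1 and TET2.1). The 3 values of r were then 0.902, 0.838 and 0.731, and no pair passed the adjustment. With group means removed they were 0.946, 0.936 and 0.951. Exact permutation within the groups then allowed no p below 0.00463, and the smallest adjusted p was 0.0833.

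Pairs with a writer did not pass the adjustment by Pearson over the 9 ewes. DNMT1 had r = 0.731 with DNMT3A (adjusted exact permutation p 0.128), which was 0.891 without W4 and D6 (adjusted exact permutation p 0.0143), and DNMT3A with TET2.1 moved from 0.747 to 0.948 (adjusted exact permutation p 0.128 and 0.00714), the highest r of the 36 pairs in the 7 ewes. DNMT1 and its guide UHRF1 had r = 0.595 and rho = 0.650, with adjusted exact permutation p-values of 0.328 and 0.266. MBD4 had negative r with UHRF1 (-0.41) and DNMT3A (-0.35), neither of which passed. Of the 36 pairs 26 had a positive r, with a median of 0.27. All values share the same libraries and TMM factors, and 1 axis carried 41.3% of the variance between libraries. How many pairs among all tested rows had as high an r was not counted. TET1, TET2.1 and TDG were each closer to a row outside the 9 genes. These were NHLRC2 for TET1 (r = 0.995), MYCBP2 for TET2.1 (0.988) and ZUFSP for TDG (0.987).

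**Figure D4:**
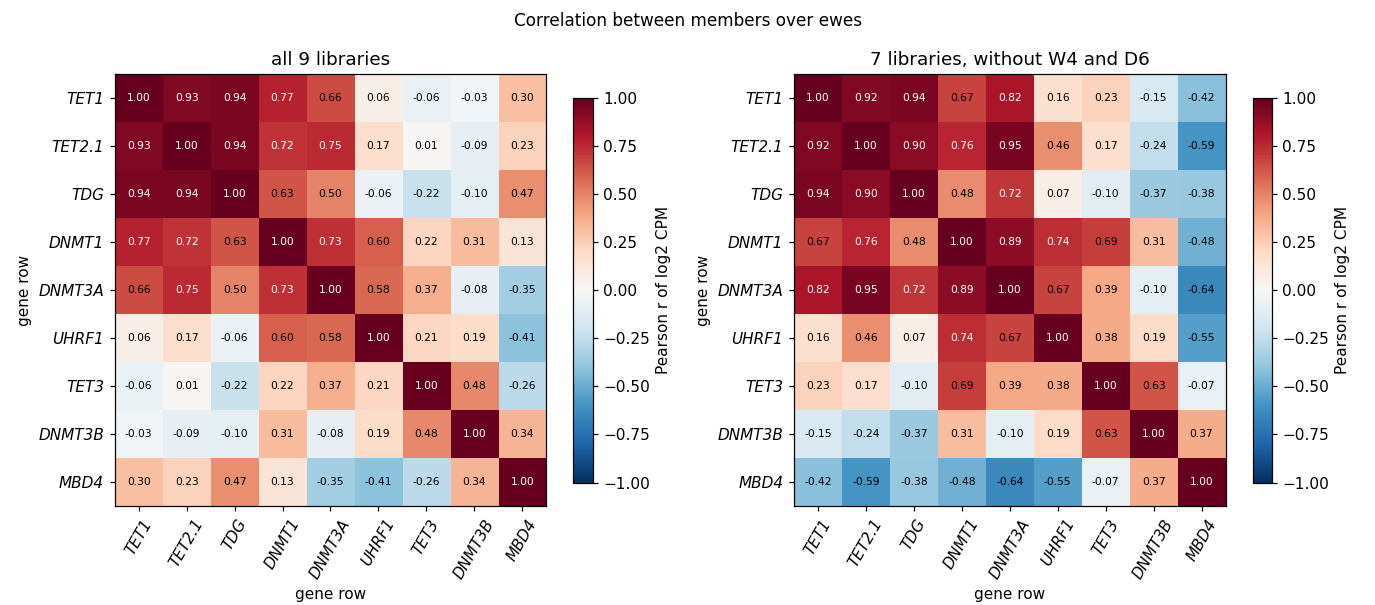
Pearson r of log2 CPM between each pair of tested genes (colour and printed number) over all 9 ewes and over the 7 without W4 and D6. TET1, TET2.1 and TDG form the red block at the upper left in both panels (0.93 to 0.94 and 0.90 to 0.94), whereas MBD4 is mostly blue in the panel of 7 ewes.

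For each gene the 2 other tested rows with the most similar pattern were found by Pearson r over the 9 libraries, as a description. DNMT1 was closest to UBTF, a factor of ribosomal RNA transcription (0.976), and GAS7 (0.975). DNMT3A was closest to TANC1 (0.966) and the RNA-binding gene CELF1 (0.956), and UHRF1 to the deubiquitinase gene USP42 (0.944) and the corepressor gene TLE3 (0.932). TET1 was closest to NHLRC2 (0.995) and PKD2, which encodes a cation channel (0.989), TET2.1 to the ubiquitin ligase gene MYCBP2 (0.988) and RBM33 (0.984), and TDG to ZUFSP (0.987) and ZMYM1 (0.987). For MBD4 they were SAR1A.1, a GTPase gene of vesicle budding (0.960), and the aspartyl-tRNA synthetase gene DARS (0.951). DNMT3B and TET3, both of low count, had weaker matches in CBLN3 (0.928) and XLOC_028962 (0.886), and in CLDN11.1 (0.921) and OAS2 (0.898). None of the 9 genes was among the 2 closest rows of another.

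Since writers and erasers were each spread widely between ewes, reads of a methyltransferase were also divided by reads of an eraser in the same ewe, which cancels depth and scaling. These 12 ratios were chosen after the values were seen and carry no test. The reads of DNMT1 per read of TET1 were 1.12 in W1, 1.43 in W2 and 1.27 in W4 of Han BB, 1.66 in D4, 2.32 in D5 and 1.75 in D6 of Dorset, and 1.34 in W6, 1.24 in W7 and 1.72 in W8 of Han ++. All 3 Han BB ewes were below all 3 Dorset ewes although DNMT1 itself overlapped, and D4 no longer lay at the lower end.

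Han BB was below Dorset without overlap in 3 of the 12 ratios, those of DNMT1 to TET1, TET2.1 and TDG. For TET2.1 the Han BB ratios reached from 0.819 to 0.924 and the Dorset ratios from 0.955 to 1.60, and for TDG they reached from 2.52 to 3.73 and from 4.52 to 7.62. Han BB was below Han ++ without overlap in the 3 ratios of DNMT3A to the same erasers. The reads of DNMT3A per read of TET1 were 0.593 in W1, 0.694 in W2 and 0.616 in W4 and 0.816 in W6, 0.932 in W7 and 0.984 in W8. Those per read of TET2.1 were 0.399 to 0.449 and 0.540 to 0.608, and those per read of TDG 1.23 to 1.81 and 2.38 to 2.597. Because TET1, TET2.1 and TDG varied together, the 3 ratios of each writer are not separate observations. Set against every other tested row in place of an eraser, DNMT1 gave a Han BB ratio wholly below Dorset for 9.31% of rows, and DNMT3A a Han BB ratio wholly below Han ++ for 14.9%. In Han ++ against Dorset all 12 ratios overlapped.

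**Figure D5:**
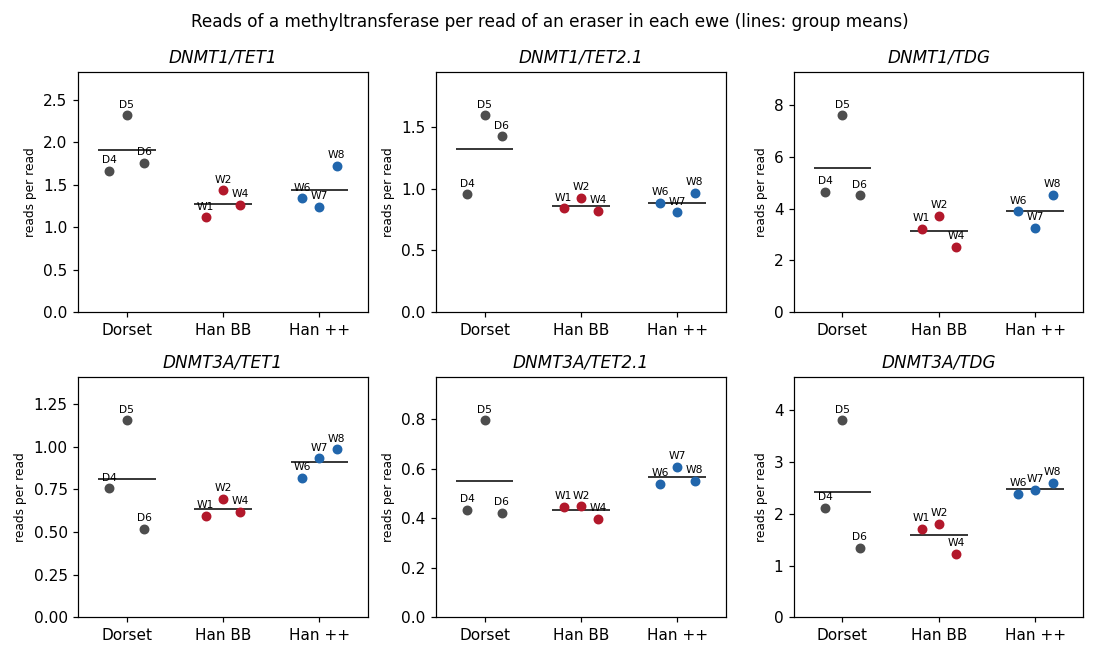
Reads of DNMT1 (top) or DNMT3A (bottom) per read of TET1, TET2.1 or TDG in each ewe (vertical axes from 0; horizontal lines are means of 3 ewes). The Han BB ewes lie below the Dorset ewes in the top panels and below the Han ++ ewes in the bottom panels. Only those of the 12 ratios with such a separation are drawn. The ratios to TET3 and those of DNMT3B overlapped in every comparison.

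The other genes of the pathway were taken from 6 fixed lists. They covered partners of maintenance methylation, partners of de novo methylation and imprinting, and other methyl-CpG readers with members of their families. The rest were base excision repair, partners of the TET enzymes and supply of methyl donors. Of the 57 listed genes 55 had a row and 54 were tested. edgeR called none in any comparison, as did DESeq2 and limma voom. At an unadjusted p under 0.05 edgeR found 5 lower in Han BB than in Dorset, 2 lower in Han ++ than in Dorset and 1 lower in Han BB than in Han ++, and none higher, beside the 4.99%, 5.27% and 1.97% of all tested rows given above. DESeq2 found 4, 3 and 2 of the 54 at that level, where 6.25%, 6.19% and 2.5% of rows passed. limma voom found 9, 11 and 4, where 11.5%, 9.78% and 7.26% of rows passed. In both comparisons with Dorset 37 of the 54 had a negative log2 fold change, with medians of -0.11 and -0.25. Over all tested rows 50.6% were negative in Han BB against Dorset and 55.9% in Han ++ against Dorset, with medians of -0.01 and -0.06. In Han BB against Han ++ 23 of the 54 were negative, beside 46.6% of all rows. The comparisons with Dorset share the same 3 control ewes.

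The list of methyl-CpG readers and members of their families held MBD3, a subunit of the NuRD repressor complex. Binding of methylated CpG by the listed genes was not measured here. MBD3 had 74.9 CPM in D4, 69.6 in D5 and 44.8 in D6. All Han BB ewes had lower values, with 34.7 in W1, 39.1 in W2 and 26.2 in W4. The log2 fold change of MBD3 in Han BB against Dorset was -0.92 (SE 0.29), with an edgeR p of 0.00964 and an adjusted p of 0.968. In Han ++ it had 35.2 to 51.6 CPM, with a log2 fold change of -0.60 against Dorset (edgeR p 0.0650). Between Han BB and Han ++ the edgeR p was 0.296. ZBTB4, a zinc finger reader, had 15.2 CPM in D4, 38.5 in D5 and 38.5 in D6 of Dorset and 9.35 in W6, 13.8 in W7 and 12.8 in W8 of Han ++. Its log2 fold change was -1.36 (SE 0.38), with an edgeR p of 0.0046 and an adjusted p of 0.624. For MBD3 the Han BB and Dorset ewes did not overlap, D6 being the nearest to Han BB. For ZBTB4 the Han ++ and Dorset ewes did not overlap, D4 being the nearest to Han ++. Of the 54 genes, 1 lay wholly above and 4 wholly below Dorset in Han BB, where 8.79% of all tested rows did not overlap. In Han ++ 1 lay wholly above and 6 wholly below Dorset, where 11.1% of all rows did not overlap.

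EHMT2, the histone methyltransferase G9a that works beside the de novo enzymes, had 55.9 to 73.4 CPM in Han BB and 78.3 to 130 in Dorset. Its log2 fold change between them was -0.79 (SE 0.27, edgeR p 0.0125, adjusted p 0.970). In Han ++ it had 70.6 to 75.0 CPM, also below Dorset, with a log2 fold change of -0.57 against Dorset (edgeR p 0.0560). Between Han BB and Han ++ the edgeR p was 0.408. GADD45G, of a family linked to active demethylation, had 2.09 to 4.48 CPM in Han BB, 5.81 to 7.40 in Dorset and 3.91 to 8.50 in Han ++. Its log2 fold change was -1.004 against Dorset (SE 0.42, edgeR p 0.0378) and -1.10 against Han ++ (SE 0.42, edgeR p 0.0249). CDCA7L, related to the partner of the remodeler HELLS, had a log2 fold change of -0.70 in Han ++ against Dorset (SE 0.31, edgeR p 0.0452), with 67.7 to 78.6 CPM against 70.7 to 165.

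Counts by list in Han BB against Dorset are given beside the shares of all rows above. The maintenance partners had 2 higher and 6 lower of 8, and the methyl-CpG readers with their family members 3 higher and 5 lower of 8. The de novo and imprint partners had 2 higher and 4 lower of 6, the TET partners 2 higher and 7 lower of 9 and the methyl donor genes 6 higher and 7 lower of 13. The base excision repair genes, which finish what TDG begins, had 2 higher and 8 lower of 10 in Han BB against Dorset and 1 higher and 9 lower in Han ++ against Dorset, with medians of -0.30 and -0.37. Their summed level reached from 548 to 558 CPM in the Dorset ewes, whereas the Han BB ewes had 455 to 490 CPM and the Han ++ ewes 411 to 472 CPM. The Dorset sums were close together and above all 6 Han ewes, a pattern noticed after the values were seen and not tested. It belonged to the sums more than to the single genes. Of the 10 genes only LIG3 lay wholly below Dorset in Han BB, where 8.79% of all tested rows did not overlap. In Han ++ 3 did (UNG, XRCC1 and LIG3), where 11.1% of all tested rows did not overlap. XRCC1, the scaffold of single-strand break repair, had the smallest p of that list in Han BB against Dorset, with a log2 fold change of -0.71 (edgeR p 0.0467). It and ZBTB4, at -0.87 (edgeR p 0.0419), were the other two of the 5 genes counted above in that comparison, and both are named after their values were seen.

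Sums of the marker lists not yet given were as follows. Immune markers summed to 474 to 987 CPM in Dorset, 569 to 1264 for Han BB and 710 to 1049 in Han ++, endothelial markers to 339 to 429, 358 to 553 and 356 to 451, and theca markers to 162 to 290, 108 to 176 and 96.3 to 196. Smooth muscle markers summed to 6357 to 12445 CPM in Dorset, 6597 to 9565 for Han BB and 6899 to 10508 in Han ++, and luteal markers to 351 to 1836, 402 to 1796 and 880 to 1547. Oocyte markers gave 17.8 to 25.0 CPM, 14.6 to 25.3 and 8.19 to 19.5. Markers of ciliated epithelium, which lines the oviduct, gave 62.2 to 220 CPM in Dorset, 93.5 to 566 for Han BB and 159 to 310 in Han ++. Their part in the values of the methylation genes was not tested.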

How the data were processed

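RNA from the ovaries of 9 ewes was sequenced on an Illumina HiSeq instrument. The paper's methods name a stranded total RNA library kit and the labels a different TruSeq kit, so strand was not relied on. Per the paper's methods, the authors aligned reads with TopHat to the sheep genome Oar 3.1 and kept uniquely mapped reads. The deposited values are raw counts per gene, and the counting program is not given in the sources used here. The authors' own test was DESeq.

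Where a symbol had several rows, the row with the most reads stood for it. Counts were filtered with filterByExpr, scaled by TMM and fitted with group as the only term in edgeR 4.0.16 (R 4.3.3). Alternatives used DESeq2 1.42.0 and limma 3.58.1. The common biological coefficient of variation was 0.472. Correlations used log2 CPM with a prior count of 0.5. The scripts were tested on simulated data. The rule for named genes was all 10 genes, then of the other lists those called and up to 3 per direction and comparison with the smallest unadjusted p under 0.05, and the 2 rows closest to each gene by r. The genes and lists were chosen with earlier results of these data known. The labels say that each sample is an ewe of its own, so the p-values measure the spread between ewes. Libraries held 10803913 to 20992535 counts, and the 9 genes 33 (DNMT3B in W8) to 4749 (DNMT1 in D5) reads in a library.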

Additional observations from a re-analysis of the deposited data

How the results depend on the processing

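No gene of the 9 was called in any comparison under any of the 19 settings, and of 486 recomputed fold changes 443 kept their sign and 43 turned. The turned values were small and none had passed a threshold. In Han BB against Dorset, limma voom gave TET1 -0.10 and TET2.1 -0.14, and leaving out W4 and D6 gave TET2.1 -0.069. In Han ++ against Dorset, DNMT3A was -0.14 by limma voom, -0.0019 with no filter on low counts and -0.11 without W4 and D6, TET2.1 was -0.031 by limma voom, TET1 was 0.084 with a term for W4 and D6 and 0.065 without them, and TDG was 0.30 and 0.25. In Han BB against Han ++, DNMT1 was -0.12 by limma voom, -0.11 with a term for W4 and D6 and -0.17 without them, TET2.1 was -0.10, -0.081 and -0.18 in that order, and without W4 and D6 TET1 was -0.021 and TDG -0.033.

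Leaving out each ewe in turn, the log2 fold changes that turned ranged as follows. In Han BB against Dorset the range was -0.56 to 0.29 for DNMT3A, -0.20 to 0.34 for TET1, -0.18 to 0.31 for TET2.1, -0.50 to 0.10 for TET3, -0.15 to 0.75 for TDG and -0.14 to 0.27 for MBD4. In Han ++ against Dorset it was -0.30 to 0.54 for DNMT3A, -0.45 to 0.066 for TET1, -0.20 to 0.13 for TET2.1, -0.49 to 0.21 for UHRF1 and -0.38 to 0.25 for TDG. In Han BB against Han ++ it was -0.17 to 0.25 for DNMT1, -0.020 to 0.43 for TET1, -0.18 to 0.30 for TET2.1 and -0.032 to 0.69 for TDG. The causes were not tested.

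The count of pairs correlated by Pearson at an adjusted p under 0.05 was 3, 2 without W4 and 4 without D6 or without both W4 and D6. It was 0 without the 2 ewes farthest from the median. It was also 0 with group means removed, where exact permutation allowed no p below 0.00463, so a single pair at that limit could not pass. By Spearman, an alternative added after seeing the data, it was 4, of which 2 (DNMT1 and DNMT3A with TET2.1) were not among those 3. Over all tested rows DESeq2 called 38, 65 and 2 rows in the 3 comparisons where edgeR called 0, 1 and 0. A term for W4 and D6 gave 1, 78 and 0, no filter gave 2, 11 and 0, and leaving out W4 and D6 gave 2, 22 and 0. With 3 ewes a group and this spread, the intervals of the 9 genes reach beyond the fold thresholds on at least 1 side. Apart from UHRF1 in Han BB against Dorset (-1.93 to -0.09), these intervals also include 0. In those, differences of that size could not be told from none. Replicate numbers were given in accession order and pair no ewes.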

Other observations

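Genes beside the methylation enzymes were singled out here after their values were seen. HELLS and DPPA3 were each high in a few ewes, of which only W4 was shared. HELLS, a chromatin remodeler needed for maintenance methylation, had 36.5 CPM in W4, 36.9 in D5 and 31.0 in D6, against 8.31 to 16.4 CPM in the other 6 ewes. Those 3 ewes also had the 3 highest levels of DNMT1 (148, 214 and 187 CPM). DPPA3, an oocyte and germ cell protein that keeps UHRF1 off chromatin, had 98 reads in W4 (6.56 CPM) and 36 in D4 (3.50 CPM), and 0.0905 to 1.35 CPM in the other 7 ewes.

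BHMT, which makes methionine from homocysteine with betaine, had 42, 158 and 29 reads in W6, W7 and W8 and 6, 9 and 32 reads in D4, D5 and D6. Scaled to CPM the Han ++ ewes (2.004 to 7.15) lay above the Dorset ewes (0.406 to 1.79), with an edgeR p of 0.115. In Han BB the reads were 0 in W1, 4 in W2 and 34 in W4.

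The split of a symbol over rows, seen for TET2, was common: 3076 rows carried a suffix, of which 1549 were not tRNA genes. BMPR1B, the gene of the FecB mutation, is among them, with 0 to 8 reads in the row BMPR1B and 1352 to 4137 reads in the row BMPR1B.1.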
